A study of Rattus norvegicus with 4 samples.

Results

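The TGF-beta system of the compressed trigeminal nerve was described through 10 genes, found by symbol among the 32623 genes of a spatial transcriptome of the rat trigeminal nerve. They were the latent TGF-beta binding protein gene Ltbp1 (ENSRNOG00000033090), the ligands Tgfb1 (ENSRNOG00000020652), Tgfb2 (ENSRNOG00000002418) and Tgfb3 (ENSRNOG00000009867), and the receptors Tgfbr1 (ENSRNOG00000007036) and Tgfbr2 (ENSRNOG00000013265). The other 4 were the matrix genes Fn1 (ENSRNOG00000014288), Timp1 (ENSRNOG00000010208), Thbs2 (ENSRNOG00000010529) and Bgn (ENSRNOG00000055962). All 10 were found, and 114 further genes of the pathway and of the matrix were followed in 6 lists. The genes were chosen by a reading of UMI counts in which the contrast of diseased and healthy tissue was already known, so their values in that contrast are given as a description without a p-value.

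The rats were wild-type adult male Sprague–Dawley animals. In the trigeminal neuralgia (TN) model the trigeminal root was compressed chronically on one side, and the root, the ganglion and the proximal branches of 3 animals were placed in the capture areas TN1, TN2 and TN3 of a Visium slide. Visium is a slide of barcoded spots that captures messenger RNA in place, and a spot can hold several cells or parts of cells. The healthy control (HC) was 1 further capture area with tissue of 2 animals that the spots do not tell apart, so HC was 1 sample. The design text takes it from the uncompressed side of TN animals, whereas the methods describe sham-operated controls. Condition and capture area therefore cannot be told apart, and the spread in each comparison of TN with HC came from the 3 TN areas.

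Latent TGF-beta is secreted bound to its own propeptide and to a latent TGF-beta binding protein, which tethers the complex to the matrix until integrins, proteases or thrombospondin release the ligand. The freed ligand binds the type II receptor (Tgfbr2), which activates the type I receptor (Tgfbr1) and through it the SMAD transcription factors. Fibronectin (Fn1) is a matrix scaffold to which latent complexes are fixed, Timp1 inhibits matrix metalloproteinases, thrombospondin 2 (Thbs2) regulates collagen assembly, and biglycan (Bgn) is a small leucine-rich proteoglycan that binds TGF-beta. After peripheral nerve injury the pathway is known for its part in Schwann cell repair and in scarring.

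The sequence upstream of Ltbp1 is shown beside that of the ligand gene Tgfb1, since Ltbp1 and this ligand differed in how they lay to the control. Both come from RefSeq (build GRCr8), in which 7 of the 10 genes had an entry. The letters searched, on both strands, were those of AP-1 (TGACTCA), the cyclic AMP response element (TGACGTCA), Sp1 (GGGCGG), the SMAD palindrome (GTCTAGAC) and the CAGA box (AGCCAGACA), and capitals mark a match. For Ltbp1, on the minus strand at chr6:26177347-26177551, the 205 of 250 upstream bases that lie outside the annotated gene are given. For Tgfb1, on the plus strand at chr1:90324062-90324311, all 250 bases are given.
Ltbp1: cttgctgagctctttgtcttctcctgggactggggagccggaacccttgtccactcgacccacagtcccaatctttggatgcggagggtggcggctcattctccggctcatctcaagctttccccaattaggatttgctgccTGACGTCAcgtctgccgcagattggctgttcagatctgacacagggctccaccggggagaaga
Tgfb1: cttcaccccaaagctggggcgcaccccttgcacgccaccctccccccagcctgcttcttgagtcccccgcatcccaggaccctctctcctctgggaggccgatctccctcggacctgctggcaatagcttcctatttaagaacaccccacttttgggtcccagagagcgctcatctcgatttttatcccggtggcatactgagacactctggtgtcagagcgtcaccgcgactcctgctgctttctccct
The Ltbp1 sequence held the letters of the cyclic AMP response element 108 to 101 bases upstream of the transcript start, and these letters were found in 1.59% of 33469 rat promoters. The 250 bases upstream of the transcript start used for Tgfbr1, of which 200 lie outside the annotated gene, held the Sp1 letters 3 times. Those of Tgfbr2 and Timp1 held them 1 time each, beside 30.5% of all promoters. None of the searched letters was found in the 250 bases of Tgfb1, Tgfb2 or Tgfb3. For Tgfbr2, Timp1, Tgfb2 and Tgfb3 these 250 bases lie wholly within the annotated gene and are not sequence upstream of the whole gene. The AP-1 letters were in 4.05%, the SMAD palindrome in 0.173% and the CAGA box in 0.314% of promoters, and in none of the 7. A match describes the letters only.

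The 4 capture areas held 6773 spots, 1256 to 2013 per area, with 23546025 to 41335930 unique molecular identifiers (UMIs, counted RNA molecules) in total. The median per spot was lowest in TN1 at 9487 UMIs and highest in TN2 at 30808 UMIs. Of 3573 distinct spot barcodes, 2337 occurred in more than 1 area, since all areas carry the same barcode set. Spots were grouped into 10 clusters without use of the 10 genes and were named from marker genes. Ganglion spots (clusters 1 and 5) numbered 313, 417 and 409 in the TN areas by number and 953 in HC. Central myelin spots (clusters 4 and 8) numbered 380, 191, 286 and 478 in the same order.

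In ganglion spots Ltbp1, Fn1, Timp1, Thbs2, Tgfbr1 and Tgfbr2 were above HC in each TN area, whereas Tgfb3 was below HC in each and Tgfb1 and Tgfb2 lay on both sides. UMIs were summed per area and region and scaled to a common total (CPM) with the trimmed mean of M-values (TMM). In such sums fewer cells of a type and less RNA per cell cannot be told apart. Ltbp1 was 15.5 CPM in TN1, 28.2 CPM in TN2 and 21.9 CPM in TN3, beside 5.17 CPM in HC, from 182, 499, 239 and 154 UMIs. The lowest TN area was above the HC level and its exact 95% counting interval of 4.39 to 6.06 CPM. The TN mean was 21.9 ± 6.32 CPM (SD, n = 3), and the fitted log2 fold change was 2.08 with a standard error (SE) of 0.41.

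Among the ligands, Tgfb1 was 2.22 CPM in TN1, 15.9 CPM in TN2 and 5.41 CPM in TN3, beside 5.11 CPM in HC. TN1 was thus under HC and TN2 well above it, and the log2 fold change of 0.64 was smaller than its SE of 0.99. Tgfb2 was 10.5, 7.0 and 4.95 CPM in the TN areas and 8.26 CPM in HC (log2 fold change -0.14, SE 0.44). Tgfb3 was 18.3, 22.0 and 18.8 CPM beside 23.6 CPM in HC (-0.26, SE 0.22). No ligand gene therefore showed the separation seen for its binding protein gene. Of the receptors, Tgfbr1 was 21.9, 47.6 and 43.0 CPM beside 18.8 CPM in HC (1.0, SE 0.45). Tgfbr2 was the scarcest of the 10 in these sums, with 15 to 43 UMIs per area, and lay at 1.71, 2.43 and 1.37 CPM beside 1.34 CPM in HC (0.46, SE 0.53). The TN3 value of Tgfbr2 was within the HC counting interval of 0.960 to 1.83 CPM.

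The matrix genes shared a pattern in which TN1 was close to HC and TN2 and TN3 were far above it. Fn1 was 37.1 CPM in TN1, 186 CPM in TN2 and 160 CPM in TN3, beside 26.6 CPM in HC (2.26, SE 0.92). Thbs2 was 11.4, 129 and 84.9 CPM beside 9.47 CPM in HC, which gave the highest log2 fold change of the 10 at 2.99 and the widest error (SE 1.32). The metalloproteinase inhibitor gene Timp1 was 175, 452 and 335 CPM beside 117 CPM in HC (1.46, SE 0.53). Bgn was 40.2 CPM in TN1, under the 52.0 CPM of HC, and 171 and 125 CPM in TN2 and TN3 (1.11, SE 0.75). Ltbp1 differed from these genes in that TN1 too stood at about 3 times the HC level.

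**Figure D1:**
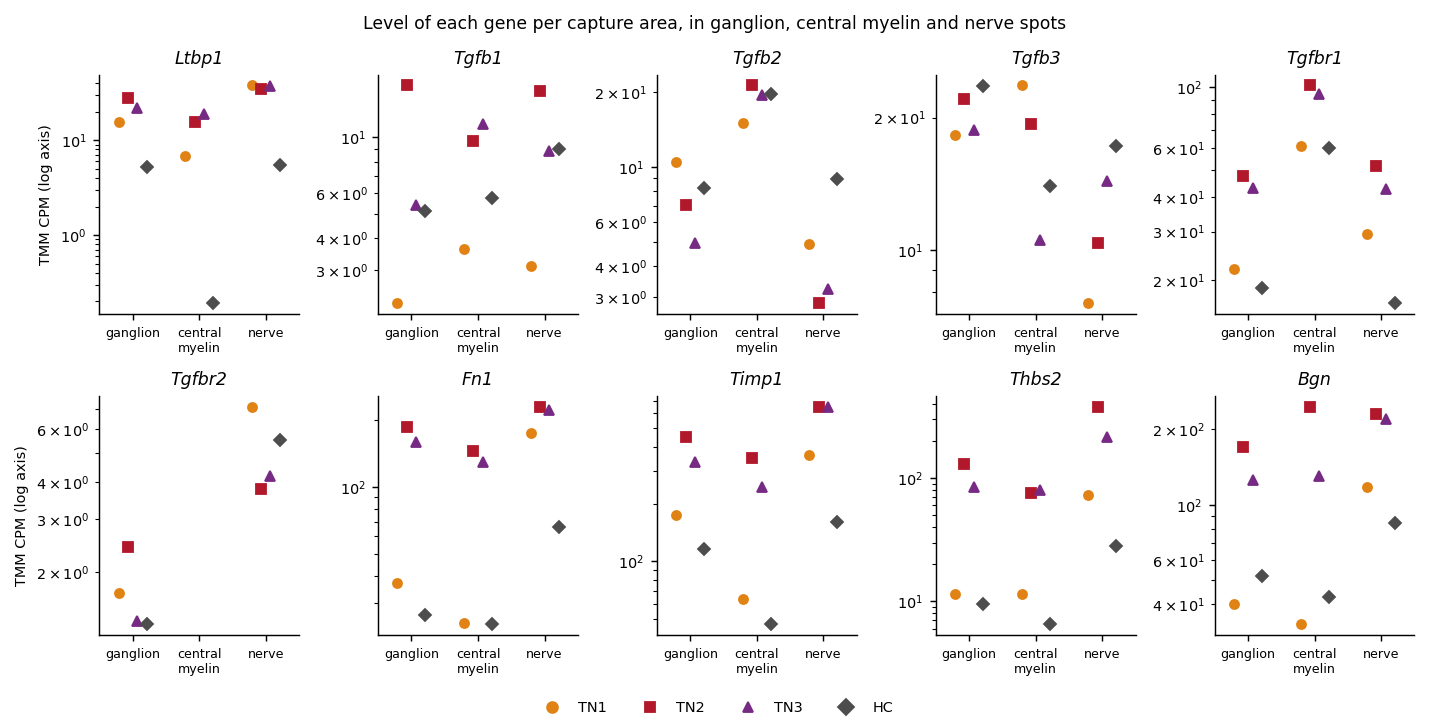
TMM-scaled CPM (log axis) of each of the 10 genes in the 4 capture areas, for ganglion, central myelin and nerve spots; each point is the sum of 1 area and region. Ltbp1 in ganglion spots reads 15.5 to 28.2 CPM in the TN areas and 5.17 CPM in HC, and for Fn1, Thbs2, Timp1 and Bgn the TN1 point lies near HC in ganglion and central myelin.

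Across all genes the ganglion fit called none: edgeR's quasi-likelihood test found 0 of 13063 genes (0%) at an adjusted p under 0.05. Before adjustment 1302 genes were under 0.05, and DESeq2 called 132 after it. All 3 TN areas lay above HC for 28.5% of genes and below it for 30.1%. Of the 10 genes 6 lay above and 1 below, and their median log2 fold change was 1.05 beside 0.03 over all genes. The contrast had a part in choosing the genes, so nothing is read from these counts. Without TN1 the fit called 974 genes.

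Markers of other cells also differed between TN and HC in the same ganglion sums. The 5 connective tissue markers summed to 1210, 3169 and 2887 CPM in TN1, TN2 and TN3 and 1285 CPM in HC. The sum of TN1 was near that of HC through Col1a1, at 284 CPM in TN1 beside 636 CPM in HC. The other 4 of the 5 were above HC in each TN area, such as Dcn at 425 CPM in TN1 beside 249 CPM in HC. The 8 macrophage markers summed to 309, 653 and 480 CPM beside 178 CPM in HC, and 7 of the 8 were above HC in each TN area. The 12 sensory neuron markers summed to 14563, 13107 and 12783 CPM beside 16302 CPM in HC. In this sum Nefh was 3388, 2371 and 3206 CPM in the TN areas beside 5604 CPM in HC. Of the 12, 8 were below HC in each TN area and 2 above it (30.1% and 28.5% of all genes). Tubb3 was among those above, at 3732, 3951 and 3361 CPM beside 2814 CPM. The 8 nerve injury genes, such as Atf3 and Sprr1a, summed to 1463, 2742 and 1463 CPM beside 588 CPM in HC. The part of these cells in the levels of the 10 genes was not tested.

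HC ganglion spots lay almost wholly in cluster 1, and those of TN in clusters 1 and 5. Cluster 1 had sensory neuron markers (Tac1, Nefh, Scn11a, Avil) among its leading genes and held 951 of the 953 HC ganglion spots, beside 208 in TN1, 42 in TN2 and 134 in TN3. Cluster 5 held 105, 375, 275 and 2 spots in that order. It was led by Csrp3, Gal, Reg3b, Vgf and Vip, with 3 nerve injury genes and no sensory neuron marker among its 10 leading genes, and was placed in the ganglion from its marker scores.

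Ltbp1 was above HC in cluster 1, and higher in cluster 5 than in cluster 1 in each TN area. The 2 HC spots of cluster 5 allow no comparison with HC there. In cluster 1 it was 13.2, 13.3 and 14.5 CPM in TN1, TN2 and TN3 beside 4.99 CPM in HC, from 104, 33, 79 and 154 UMIs. In cluster 5 it was 20.9, 31.4 and 29.3 CPM. The 3 TN areas were thus nearly equal in the neuron-rich cluster, where the log2 fold change was 1.40 (SE 0.29). Fn1 in cluster 1 kept the distance of TN1 from the other areas, at 30.4, 109 and 127 CPM beside 25.6 CPM in HC (log2 fold change 1.71). In cluster 5 it was 52.2, 204 and 193 CPM. Thbs2 was 9.67, 74.0 and 53.7 CPM in cluster 1 beside 9.14 CPM in HC, and 15.5, 141 and 116 CPM in cluster 5. Timp1, Bgn, Tgfbr1 and Tgfb1 were likewise higher in cluster 5 in each TN area. Tgfb2 and Tgfb3 were not, with Tgfb2 lower in cluster 5 in each TN area (9.38, 7.08 and 4.77 CPM beside 11.2, 7.64 and 5.14 CPM).

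**Figure D2:**
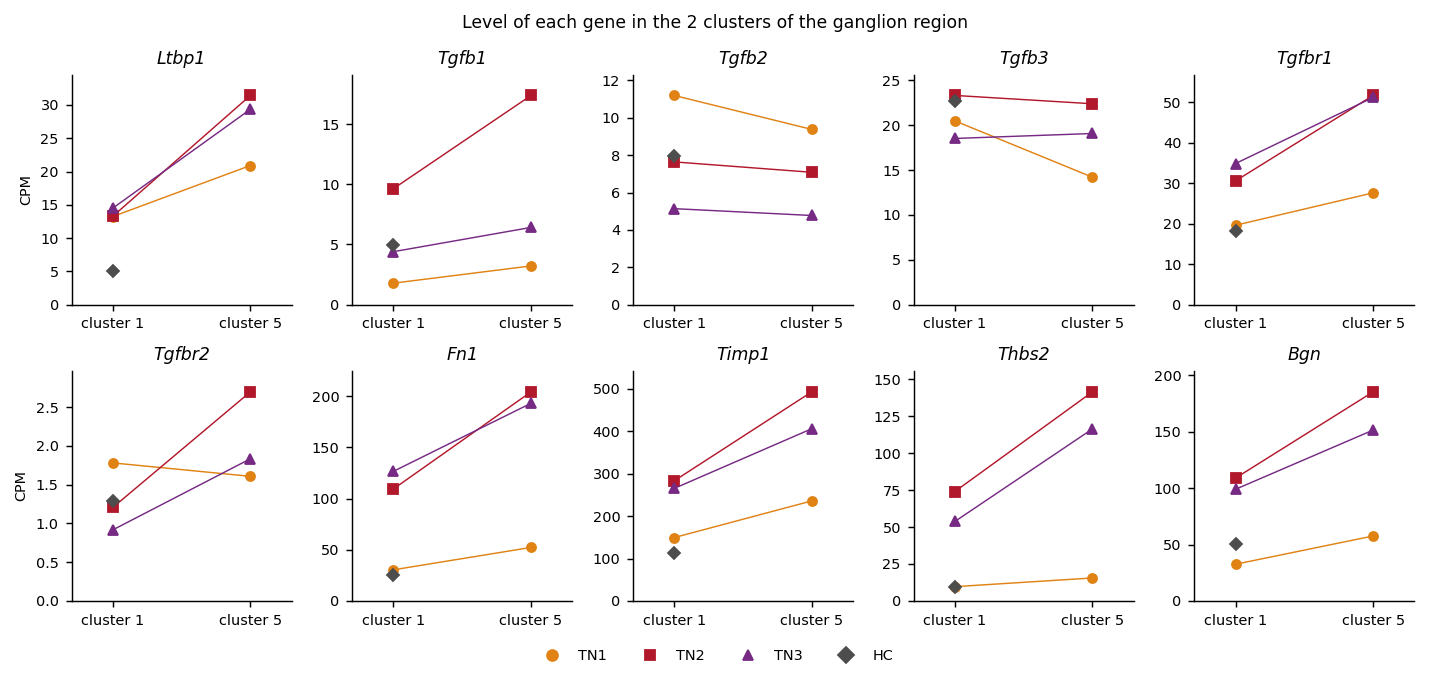
CPM of the 10 genes in the 2 ganglion clusters, 1 point per capture area; HC is shown only in cluster 1, since cluster 5 held 2 HC spots. Ltbp1 reads 13.2 to 14.5 CPM in the TN areas and 4.99 CPM in HC in cluster 1, and 20.9 to 31.4 CPM in cluster 5.

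In central myelin, the spots named from oligodendrocyte markers, Ltbp1 was nearly unseen in HC. A single UMI was counted among 478 HC spots (0.191 CPM), beside 15, 24 and 25 UMIs in TN1, TN2 and TN3 (6.83, 15.5 and 18.8 CPM). The ratios to HC were 38.4 (exact 95% counting interval 5.90 to 1615), 86.7 (14.1 to 3565) and 98.6 (16.1 to 4049). These intervals cover counting error only and show how little 1 UMI fixes the size of the difference. The mix of central myelin clusters also differed. Most HC spots came from cluster 8 (339, beside 139 from cluster 4). Most TN spots came from cluster 4 (307, 142 and 223 by area, beside 73, 49 and 63 from cluster 8). Cluster 4 was shallower, with a median of 4946 UMIs per spot beside 10559. It was named by a margin of 0.252, just over the 0.25 required, with astrocyte markers next. The part of this mix in the central myelin values was not tested.

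The matrix genes again had TN1 near HC. Fn1 was 24.6, 146 and 130 CPM beside 24.1 CPM (log2 fold change 2.03, SE 0.90), and Thbs2 was 11.4, 76.1 and 79.5 CPM beside 6.51 CPM (3.06, SE 1.05). Timp1 was 63.3, 351 and 247 CPM beside 46.7 CPM (2.23, SE 0.87), and Bgn was 33.2, 247 and 131 CPM beside 42.9 CPM (1.66, SE 0.94). Bgn in TN1 was thus below HC here as in the ganglion. Tgfbr1 was 61.0, 101 and 94.5 CPM beside 60.1 CPM (0.50, SE 0.34), and the 3 ligands lay on both sides of HC. Tgfbr2 had too few UMIs to pass the filter. By edgeR 0 of 9790 genes (0%) were called, 300 were under 0.05 before adjustment, DESeq2 called 4, and edgeR without TN1 called 185. All 3 TN areas were above HC for 5 of the 9 genes tested and for 21.1% of all genes, and below it for 0 of 9 and 21.4%. The connective tissue markers summed to 499, 3302 and 1684 CPM beside 609 CPM in HC, a sum in the same order as Bgn. Of these markers 4 of 5 were above HC in each TN area, unlike the sum. The macrophage markers summed to 740, 1235 and 1519 CPM beside 893 CPM, and the central myelin markers to 2530, 2573 and 2817 CPM beside 2749 CPM. Central neuron markers, such as Gad1 and Slc6a5, summed to 71.0, 56.7 and 2.25 CPM in TN1, TN2 and TN3 beside 0.957 CPM in HC. The spots are thus not shown to be the same tissue in each area, and the part of this makeup was not tested.

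In peripheral nerve the clusters gave TN2 only 9 spots, so nerve spots were taken by their marker scores, which gave 279, 29 and 322 spots in the TN areas and 90 in HC. Ltbp1 was closely alike in the TN areas, at 37.8, 34.9 and 37.1 CPM from 85, 37 and 160 UMIs. HC had 5.51 CPM from 8 UMIs, with a counting interval of 2.38 to 10.9 CPM. The TN mean was 36.6 ± 1.49 CPM (SD, n = 3) and the log2 fold change 2.72 (SE 0.36). In this region TN1 did not stand apart for Ltbp1, and for Fn1 it did so less than elsewhere.

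Fn1 was 174, 230 and 221 CPM beside 66.2 CPM (1.65, SE 0.28), Timp1 363, 652 and 651 CPM beside 161 CPM (1.78, SE 0.42), and Bgn 118, 231 and 221 CPM beside 84.8 CPM (1.16, SE 0.43). Thbs2 spread widely, from 73.3 CPM in TN1 to 379 CPM in TN2 and 214 CPM in TN3, beside 28.3 CPM (2.96, SE 0.96). Tgfbr1 was 29.3, 51.9 and 42.9 CPM beside 16.5 CPM (1.30, SE 0.41). The ligands did not share this. Tgfb2 was 4.89, 2.83 and 3.24 CPM beside 8.96 CPM (-1.26, SE 0.66), from 3 to 14 UMIs per area, and Tgfb3 was 7.56, 10.4 and 14.4 CPM beside 17.2 CPM (-0.64, SE 0.47). Tgfb1 lay on both sides of HC, at 3.11, 15.1 and 8.80 CPM beside 8.96 CPM.

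Across all genes the nerve fit called 384 of 9785 (3.92%), 61 higher and 323 lower in TN. Calls of single members are not given, since the contrast had a part in choosing them. All 3 TN areas were above HC for 6 of the 10 and for 34.2% of all genes, and below it for 2 of the 10 and 34.7%. Nothing is read from these counts, for the reason given above, and they hung on single areas, with 0 genes called without TN3 and 1797 without TN1. The nerve clusters without TN2 called 0 genes and gave Ltbp1 a log2 fold change of 2.84 (SE 0.45). Sensory neuron markers stood higher in the HC nerve spots. The sensory neuron markers summed to 3376, 4174 and 3605 CPM in the TN areas and 9795 CPM in HC, and 11 of 11 tested were below HC in each TN area. Connective tissue markers summed to 6495, 4817 and 4880 CPM beside 2996 CPM, and macrophage markers to 523, 779 and 817 CPM beside 210 CPM. Peripheral myelin markers, by which the spots were named, summed to 138104, 66995 and 89679 CPM beside 86538 CPM. The part of this makeup in the values above was not tested.

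Over all spots of each area Ltbp1 was 16.9, 36.1 and 44.8 CPM beside 4.29 CPM in HC. The makeup of the areas differed. Blood and bone spots numbered 64, 8 and 140 in TN1, TN2 and TN3 and 524 in HC. Cluster 3, described below, held 327 spots of TN2, 499 of TN3 and none of TN1 or HC. The part of this makeup in the all-spot values was not tested. By edgeR 0 of 14902 genes (0%) were called and 1271 were under 0.05 before adjustment, while DESeq2 called 158. Without TN1 edgeR called 2171 genes. All 3 TN areas were above HC for 6 of the 10 and 28.7% of all genes, and below for 2 of the 10 and 30.6%. A direct fit of whether the TN to HC difference was unlike between ganglion and central myelin called 3 of 13315 genes (0.0225%) and 0 of the 10. Before adjustment 739 of all genes were under 0.05. The fitted value for Ltbp1 was -3.96 on the log2 scale (SE 0.92), the ganglion difference being the smaller. It hangs on the 1 UMI counted in HC central myelin.

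Within the tissue, Ltbp1 was highest in connective tissue spots, which occurred in number only in TN2 (109 spots, 64.9 CPM) and TN3 (51 spots, 94.8 CPM). Next came cluster 3, an unnamed cluster led by Gpr83, Thbs2, Col18a1 and Vim, which held 327 spots of TN2, 499 of TN3 and none of TN1 or HC. There Ltbp1 was 50.5 and 72.5 CPM, overlapping the connective tissue range. Nerve clusters followed with 47.1 CPM in TN1, 40.2 CPM in TN3 and 6.21 CPM in HC, so the HC nerve was below every astrocyte-like sum (22.7 and 28.8 CPM). Ganglion sums ran from 4.99 CPM in HC to 28.8 CPM in TN2, where they were above the astrocyte-like sum of that area. Central myelin (0.183 to 18.1 CPM) and central neuron-like spots (4.50 and 11.1 CPM) overlapped the ganglion. The regions do not hold the same areas, and those with the highest levels held sums of TN2 and TN3 alone. These levels are unscaled CPM in the region sums of 20 spots or more and carry no test.

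The other matrix genes shared the top of this order but not its detail. Fn1 was 1201 and 2238 CPM in connective tissue of TN2 and TN3 and no more than 394 CPM in any other region. Bgn was 878 and 1284 CPM there and at most 373 CPM elsewhere. Thbs2 was instead highest in cluster 3 (447 and 427 CPM), above connective tissue (360 and 346 CPM), and is among the leading genes of that cluster, which was nevertheless formed without it. Timp1 showed no such focus, with overlapping ranges in cluster 3 (681 to 685 CPM), astrocyte-like spots (604 to 699 CPM) and connective tissue (565 to 718 CPM).

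The ligands and receptors were highest either in connective tissue (Tgfb1, Tgfb3, Tgfbr2) or in astrocyte-like spots (Tgfb2, Tgfbr1). Tgfb1 was highest in connective tissue (45.6 and 19.4 CPM), overlapping cluster 3 (13.9 to 27.0 CPM). Tgfb2 was highest in astrocyte-like spots (30.8 and 31.4 CPM), then in central myelin (15.5 to 21.9 CPM over 4 areas), and lowest in cluster 3 (3.51 to 6.55 CPM). In connective tissue, where Ltbp1 was highest, Tgfb2 was 13.6 to 14.0 CPM. Tgfb3 was 26.6 to 27.1 CPM in connective tissue and 18.5 to 22.7 CPM over the 4 ganglion sums, with other ranges overlapping the latter. Tgfbr1 was highest in astrocyte-like spots (151 and 170 CPM), above connective tissue (94.2 and 126 CPM). Tgfbr2 was 4.52 and 9.34 CPM in connective tissue, a range that overlapped that of nerve.

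**Figure D3:**
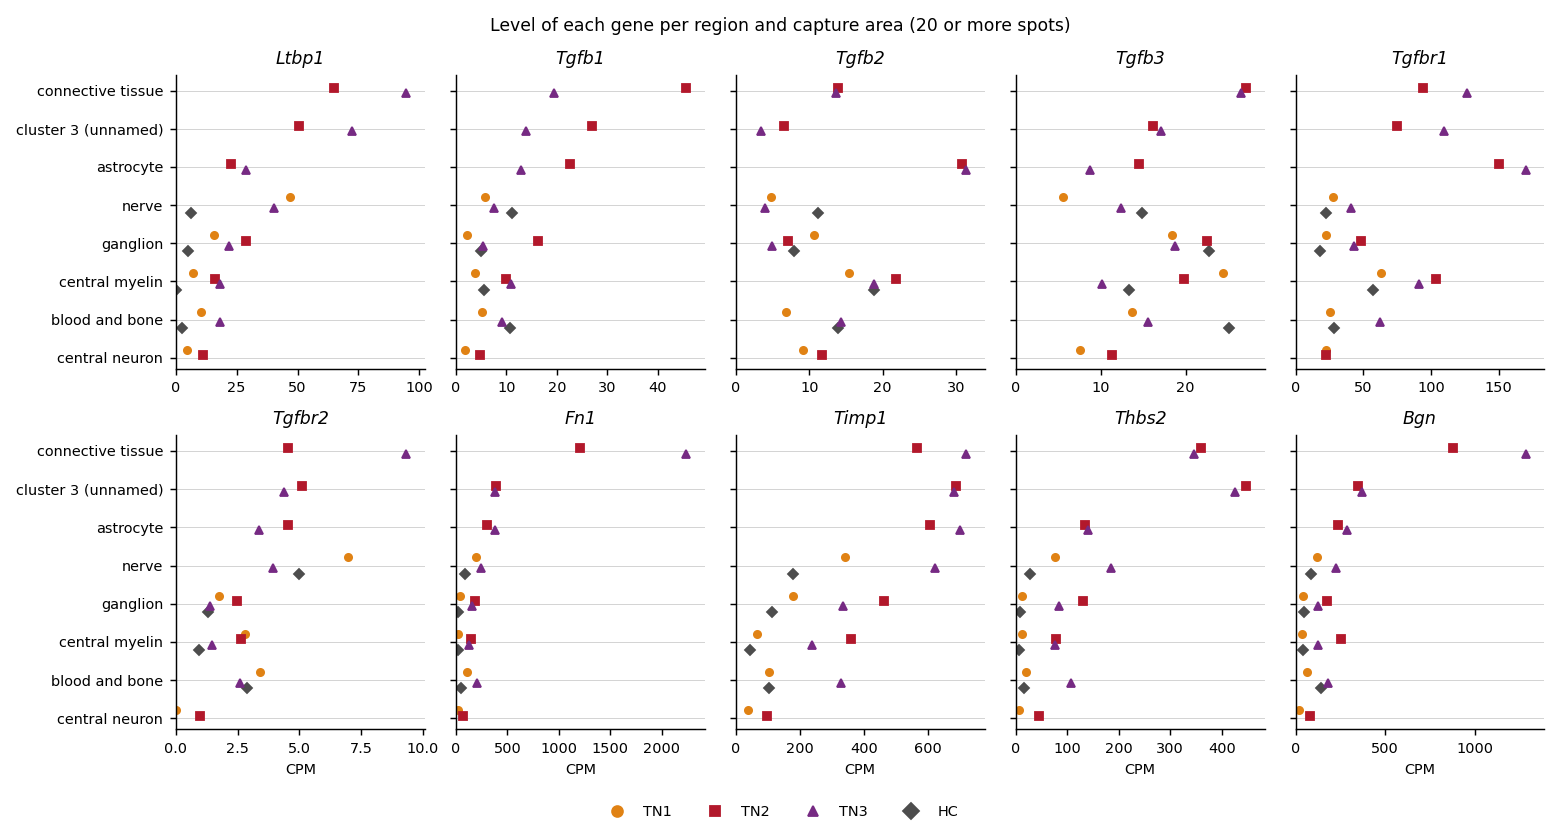
CPM (linear axis) of each gene by region, 1 point per capture area with 20 spots or more in that region. Fn1 and Bgn stand out in connective tissue, Thbs2 in the unnamed cluster 3, and Tgfb2 and Tgfbr1 in astrocyte-like spots.

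Across the 22 sums of a region in an area, described without a test since they share areas and depth, the matrix genes ran together. Pearson's r of log2(CPM + 5) was 0.959 for Fn1 and Bgn, 0.928 for Fn1 and Thbs2, 0.926 for Timp1 and Thbs2 and 0.916 for Ltbp1 and Thbs2. For Ltbp1 it was 0.613 with Tgfb1, 0.0688 with Tgfb3 and -0.255 with Tgfb2. Among 5966 genes the most like Ltbp1 were Adamts12 (0.966), Cyp1b1 (0.956) and Cemip (0.955), the last of which takes part in hyaluronan breakdown. The most like Fn1 were AABR07068316.1 (0.981), Mgp (0.973), a matrix gene of connective tissue, and Gask1b (0.968), and those most like Bgn were Loxl1 (0.971), Fkbp10 (0.970) and Htra3 (0.967), of which the first 2 serve elastin and collagen maturation. Thbs2 was most like Btg1 (0.983), Col18a1 (0.982) and C1s (0.975). Timp1 was most like Vim (0.977), Cd63 (0.966) and Serping1 (0.957). Tgfbr1 stood apart from these, with the microglial and macrophage genes Tyrobp (0.971), C1qb (0.964) and Fcer1g (0.961) the most like it. Tgfb1 was most like Htra3 (0.885), LOC108350502 (0.883) and Srsf2 (0.877). Tgfb2 was most like LOC100910996 (0.894), Clu (0.879), an astrocyte-rich gene, and Macf1 (0.875). Tgfbr2 was most like Zfp36 (0.899), Lum (0.879) and Pkdcc (0.872). The most like Tgfb3 reached lower values, with Pdlim1 (0.741), Cxcr4 (0.727) and Dkk3 (0.726).

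To see which component of the ganglion the genes went with, ganglion spots of each area were ranked by the score of a marker list that held none of the 10, and the 25% of spots with the highest score (high spots) were compared with the 25% with the lowest (low spots), with the capture area as a block. This contrast lies within areas and is not the contrast of TN with HC that was known when the genes were chosen. It was tested with edgeR (4 areas, Benjamini-Hochberg over all genes), which draws the variance of each gene toward that of all genes. The genes and lists were chosen with earlier results of these data known, among them levels in connective tissue spots. A rise with the connective tissue score may therefore be partly built into the choice. Each end held 78, 104, 102 and 238 spots in TN1, TN2, TN3 and HC.

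In the spots richest in connective tissue markers, 6 of the 9 genes tested were higher, each in 4 of 4 areas, where 19.1% of 10493 genes were called higher and 16.1% lower. Ltbp1 went from 4.91 to 24.6 CPM in TN1, from 19.1 to 39.0 CPM in TN2, from 12.8 to 30.4 CPM in TN3 and from 3.60 to 8.44 CPM in HC. Every area moved up, HC included, although the high spots of HC remained below the low spots of TN2 and TN3. The log2 difference was 1.31 (SE 0.17, edgeR adjusted p = 2.13e-05).

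Fn1 had the highest fitted shift of the 9, close to those of Thbs2 and Bgn, from 22.8 to 75.2 CPM in TN1, 119 to 301 CPM in TN2, 117 to 288 CPM in TN3 and 16.3 to 55.1 CPM in HC (1.47, SE 0.09, edgeR adjusted p = 5.40e-09). Thbs2 (1.44, SE 0.11, adjusted p = 3.47e-08) went from 6.75 to 18.7 CPM in HC and from 75.4 to 188 CPM in TN2. Bgn (1.39, SE 0.09, adjusted p = 5.40e-09) went from 36.1 to 95.1 CPM in HC and from 24.2 to 82.6 CPM in TN1. Over the 4 areas the log2 ratio ran from 1.29 to 1.70 for Fn1, from 0.85 to 1.71 for Thbs2 and from 1.21 to 1.73 for Bgn, so areas with low levels, HC and TN1, moved as well as those with high ones. Ltbp1, Fn1, Thbs2 and Bgn kept their calls under each of 11 alternatives. Timp1 rose by less (0.63, SE 0.09, edgeR adjusted p = 3.81e-05). Tgfb1 was the only ligand called (0.80, SE 0.20, edgeR adjusted p = 0.00533), from 5 to 74 UMIs per end, and its call was lost with DESeq2 (adjusted p = 0.0698). With regions taken by marker scores edgeR no longer called Tgfb1 (adjusted p = 0.0535) or Timp1 (adjusted p = 0.0901).

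Tgfbr1 did not pass in this contrast (log2 difference 0.31, edgeR adjusted p = 0.0562), although it did with 12 clusters (0.0147) and with spots of low count left out (0.0456), nor did Tgfb2 (-0.25, 0.362) or Tgfb3 (0.19, 0.273). The high spots were shallower in each area, with 18917 UMIs per spot against 47901 in the low spots of HC and 20611 to 35508 against 26839 to 52766 in the TN areas, and the part of depth was not tested.

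The macrophage score gave smaller shifts of the same genes, with 5 of 9 higher, each in 4 of 4 areas, where 3% of 10650 genes were called higher and 1.06% lower. Thbs2 (0.79, SE 0.10, edgeR adjusted p = 0.000554) and Timp1 (0.45, SE 0.07, edgeR adjusted p = 0.00217) were called. Timp1 went from 103 to 128 CPM in HC, 146 to 211 CPM in TN1, 380 to 546 CPM in TN2 and 298 to 400 CPM in TN3. Ltbp1 (0.68, SE 0.15, edgeR adjusted p = 0.0233) was lost when any of the 3 TN areas was left out, with adjusted p from 0.114 to 0.152. Fn1 (0.45, adjusted p = 0.0118) and Bgn (0.38, adjusted p = 0.0185) were lost without TN2 (0.0858 and 0.103) and without TN3 (0.153 and 0.150). With regions taken by marker scores Ltbp1, Fn1 and Thbs2 were not called (adjusted p = 0.329, 0.304 and 0.0809), and DESeq2 did not call Bgn (0.0768). Timp1 alone of the 5 was called under each of 11 alternatives. The connective tissue and macrophage scores were themselves correlated over the 2092 ganglion spots (r = 0.551). Tgfbr1, whose pattern over regions was most like microglial genes, did not pass (0.47, edgeR adjusted p = 0.0668), but did with 8 clusters (0.0432) and without a filter on low counts (0.00135).

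In the spots richest in sensory neuron markers 7 of 10 were lower, where 9.04% of 10748 genes were called lower and 7.44% higher. Ltbp1 went from 24.5 to 10.5 CPM in TN1, 38.3 to 21.3 CPM in TN2, 38.6 to 16.2 CPM in TN3 and 5.27 to 4.35 CPM in HC (log2 difference -0.91, SE 0.16, edgeR adjusted p = 0.00130). Timp1 (-0.66, adjusted p = 6.52e-05), Fn1 (-0.64, adjusted p = 0.000127) and Bgn (-0.52, adjusted p = 0.00239) were lower in 4 of 4 areas. Thbs2 (-0.74, adjusted p = 0.00122) was lower in 3 of 4 areas, with a log2 ratio of 0.34 in TN1. Tgfb1 (-0.72, adjusted p = 0.0476) and Tgfbr1 (-0.44, adjusted p = 0.0421) passed narrowly and were lost when any of the 3 TN areas was left out. The contrast hung on how ganglion spots were taken. With regions taken by marker scores only Timp1 was still called, with adjusted p = 0.336 for Ltbp1, 0.642 for Fn1 and 0.125 for Bgn, and Thbs2 turned to 0.034.

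By the nerve injury score, which takes in Atf3, Sprr1a and Gal, none of the 10 was called, where 0.421% of 10919 genes were called higher and 0.0916% lower by edgeR. Only Tgfbr1 (0.42, unadjusted p = 0.00822 and edgeR adjusted p = 0.218) and Timp1 (0.37, unadjusted p = 0.0292 and edgeR adjusted p = 0.373) were under 0.05 before adjustment. Without a filter on low counts both passed (edgeR adjusted p = 0.0480 and 0.00322), and DESeq2 called none of the 7 to which it gave an adjusted p. The fit took HC as a block beside the TN areas. In HC ganglion sums Sprr1a was 0.067 CPM, Csrp3 0.638 CPM and Atf3 5.44 CPM, whereas Gap43 was 463 CPM and Jun 87.0 CPM. The HC ranking thus had little signal from the first of these genes. The result does not decide whether the 10 genes went with injury within TN, and a fit of the TN areas alone was not tested. The injury score was correlated with the macrophage score (r = 0.609) and the connective tissue score (r = 0.491) over the same spots. Depth also differed by these scores. In TN3 low and high spots had 9154 and 38098 UMIs per spot by the sensory neuron score. By the injury score they had 11209 and 31832, and by the macrophage score 15299 and 30611. In TN2 the low spots were the deeper ones by the injury score (46410 beside 43463) and the macrophage score (48637 beside 39936). The part of depth was not tested.

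**Figure D4:**
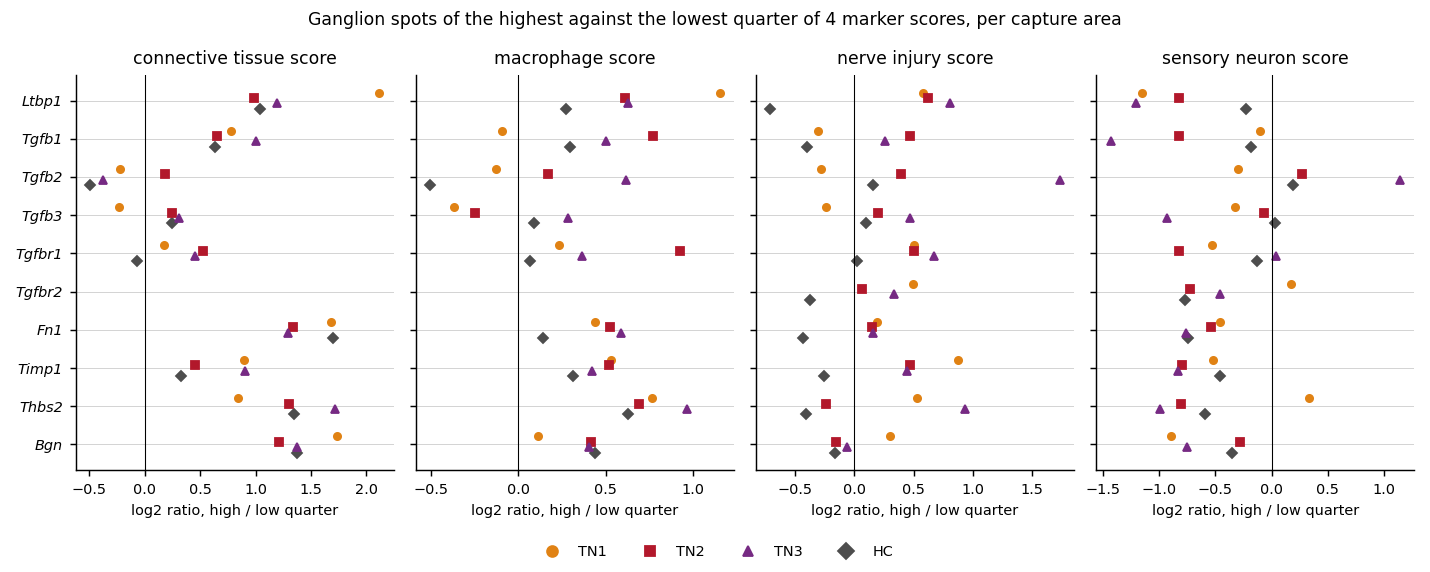
Log2 ratio of CPM in the high to the low ganglion spots (25% each) for each gene, by 4 marker scores; each point is 1 capture area and the line at 0 marks no difference. For the connective tissue score all 4 points of Ltbp1, Fn1, Thbs2, Bgn, Timp1 and Tgfb1 are above 0, and for the sensory neuron score those of Ltbp1, Fn1, Timp1, Bgn and Tgfb1 are below it.

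The further genes of the pathway were read from 6 lists, in which the ganglion fit called 0 genes in any list, as over all genes. The median of each list stands beside 0.03 over all genes in the ganglion. Counts in the connective tissue contrast stand beside 19.1% higher and 16.1% lower. Of 16 genes of latency and activation tested, 9 were above HC in each TN area and 1 below (28.5% and 30.1% of all genes), with a median log2 fold change of 1.0. Mmp2, a metalloproteinase, was 39.8, 137 and 94.6 CPM beside 38.6 CPM in HC (1.23, SE 0.66), with TN1 at the HC level as for the matrix genes. Ltbp3, a relative of Ltbp1, was 102, 154 and 123 CPM beside 126 CPM (0.00), and the integrin genes Itgb1 (0.32) and Itgb5 (0.02) were also near 0. Of the other relatives, named after their values were seen, Ltbp4 was 22.7, 42.3 and 45.2 CPM beside 18.3 CPM (1.0, SE 0.42) and Ltbp2 was at 0.47 (SE 0.49). In the connective tissue contrast 10 of 14 were higher and 1 lower, with Mmp2 at 1.49 (edgeR adjusted p = 6.04e-09), Itgb5 at 0.82 and Ltbp3 at 0.19 (edgeR adjusted p = 0.0483).

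Of 20 receptor and signal transducer genes, 6 were above HC and 5 below in each TN area (28.5% and 30.1% of all genes), with a median of 0.30. Smad1 was 43.0, 47.3 and 36.5 CPM beside 26.6 CPM (0.67, SE 0.22), Tgfbr3, the co-receptor betaglycan, 42.0, 79.8 and 96.9 CPM beside 42.1 CPM (0.79), Eng 0.37 and Pmepa1 0.42 on the log2 scale. In nerve the log2 fold change of Tgfbr3 in TN against HC was 1.42 (SE 0.26). In the connective tissue contrast 5 of 19 were higher, including Tgfbr3 (0.77) and Eng (0.65), and Smad1 and Pmepa1 did not pass.

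Of 14 genes known as TGF-beta targets, 7 were above HC and 2 below in each TN area (28.5% and 30.1% of all genes), with a median of 0.53. Tgfbi, a secreted TGF-beta-induced protein, was 111, 219 and 134 CPM beside 71.3 CPM (1.12, SE 0.41). Id3 was 138, 152 and 213 CPM beside 104 CPM (0.69), Id1 0.29 and Tsc22d1 0.17. In the connective tissue contrast 8 of 13 were higher, with Tgfbi at 1.22 (edgeR adjusted p = 6.35e-06), Id1 at 0.50 and Id3 at 0.41, and Tsc22d1 did not pass.

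Of 20 proteases and inhibitors, 10 were above HC in each TN area and 0 below (28.5% and 30.1% of all genes), with a median of 0.92. Plat, tissue plasminogen activator, was 103, 186 and 202 CPM beside 67.3 CPM (1.28, SE 0.42), and Serpinh1, a collagen chaperone, 182, 398 and 401 CPM beside 190 CPM (0.78). Mmp15 was at 0.03. Of the relatives of Timp1, Timp2 was at -0.08, and Timp4 and Timp3, named after their values were seen, were at 0.12 and 0.45, with Timp3 above HC in each TN area. Mmp12, named after its values were seen, had no UMI in HC and 0.512, 8.92 and 11.9 CPM in the TN areas. Against a floor of 3 counts in the HC sum the TN1 value was 5.08-fold higher and the TN mean 70.6-fold, or 46.8-fold without TN3. These ratios carry no counting error of the TN values, so they are not lower bounds. In the connective tissue contrast 12 of 18 were higher, with Serpinh1 at 0.92, Timp2 at 0.69, Mmp15 at 0.52 and Plat at 0.34.

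Of 24 matrix glycoprotein and proteoglycan genes, 10 were above HC and 4 below (28.5% and 30.1% of all genes), with a median of 0.59. Dcn was 425, 728 and 505 CPM beside 249 CPM (1.15, SE 0.34) and Spp1, osteopontin, 1270, 1960 and 1521 CPM beside 709 CPM (1.16, SE 0.29). For both, TN1 too was above HC. Sparc was at 0.26 and Fbln2 at -0.19 on the same scale. In the connective tissue contrast 13 of 19 were higher and 2 lower, without Dcn and Lum, which are part of the score, beside 19.1% and 16.1% of all genes. Sparc was at 0.76, Fbln2 at -0.38 (edgeR adjusted p = 0.00170) and Spp1 was not called (-0.06). Of 7 receptors for fibronectin and thrombospondin, 5 were above HC and 0 below (28.5% and 30.1% of all genes), with a median of 0.93. Cd44 was 45.6, 82.6 and 56.5 CPM beside 24.2 CPM (1.35, SE 0.37), Lrp1 0.62, Sdc4 0.51 and Cd47 0.19, and 4 of the 7 were higher in the connective tissue contrast, among them Lrp1 (0.91), Cd44 (0.46) and Sdc4 (0.43).

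Over the 6 lists, and without the genes of the score itself, the connective tissue contrast called 52 of 90 genes higher and 3 lower, beside 19.1% and 16.1% of all genes. The macrophage contrast called 13 of 95 higher and 0 lower, beside 3% and 1.06%. The sensory neuron contrast called 28 of 94 lower and 1 higher, beside 9.04% and 7.44%. The nerve injury contrast called 0 of 96, beside 0.421% higher and 0.0916% lower over all genes. That contrast took in HC, where some genes of the score were scarce.

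**Figure D5:**
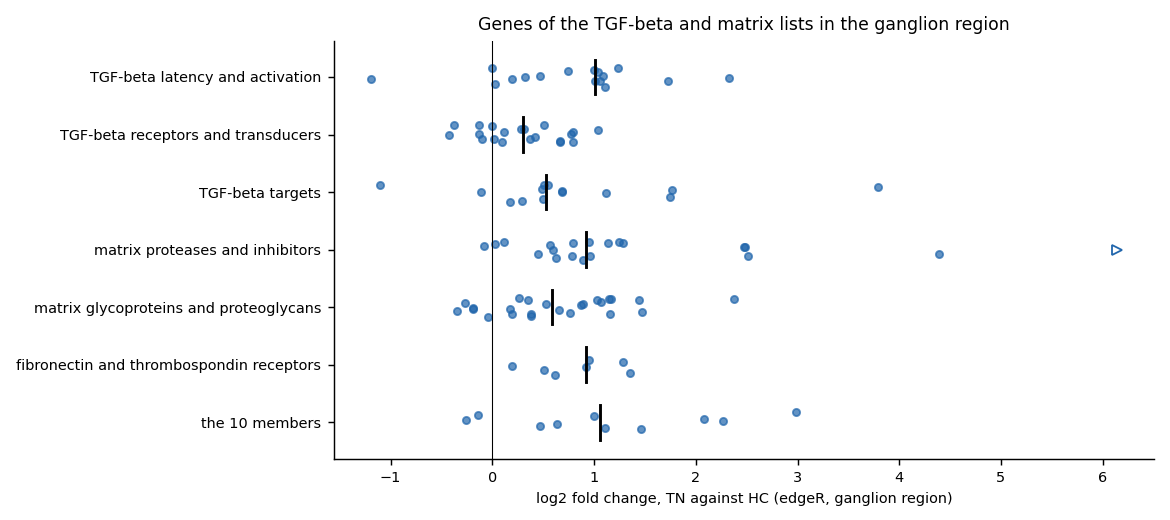
Log2 fold change of TN against HC in ganglion spots for the genes of the 6 lists; each point is a gene and each bar the median of a list. The medians run from 0.30 for receptors and transducers to 1.0 for latency and activation, and the open triangle is Mmp12 against a floor of 3 counts in HC.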

How the data were processed

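Visium sections of OCT-embedded tissue from 4 capture areas (TN1, TN2, TN3 and HC) were analysed. The authors deposited 1 matrix of UMI counts per gene and spot for all areas, made with Space Ranger 1.2.0 per the file headers. The submitters' processing notes also list STAR. The genome build and the annotation were not given in the sources used here. Counts as deposited were not normalized, and the suffix of each barcode gave the capture area.

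Spots were clustered from 16088 genes with SCTransform (sctransform 0.4.2, Seurat 5.3.0), 3000 variable genes without the 10 genes described, 30 principal components and K-means with 10 clusters. A cluster took the name of the marker list with the highest score where its margin over the next was at least 0.25. Of 212 listed symbols, 3 were not found. For nerve, clusters left 9 spots in TN2, under the minimum of 20, so nerve spots were named by marker scores per spot. This departs from the planned test on clusters.

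UMIs were summed per area and region and fitted with edgeR 4.0.16 (R 4.3.3; TMM, filterByExpr, quasi-likelihood test, Benjamini-Hochberg over all genes tested, threshold 0.05). TN (n = 3) against HC (n = 1) left 2 residual degrees of freedom. Contrasts of the 25% of ganglion spots with the highest and the lowest score had the capture area as a block and 3 residual degrees of freedom. p-values measure the spread between these capture areas, with the variance of each gene drawn by edgeR toward that of all genes. They therefore do not rest on the spread of the single gene alone. CPM of regions and clusters were not TMM-scaled, and log2 ratios of these ends used a pseudocount of 1 CPM. Counting intervals are exact Poisson intervals at 95% and cover counting error only. DESeq2 1.42.0, other scaling, no filter, 8 and 12 clusters, regions from marker scores, a filter on spots (500 genes and 1000 UMIs) and leaving out each TN area were tried as alternatives. The fits were tested on simulated data.

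The 10 genes and all lists were chosen with earlier results of these data known. The text names all 10, the 4 most abundant ganglion genes of each list and any called in TN against HC, and the 3 genes most like each of the 10 among those of mean 20 CPM or more.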

Additional observations from a re-analysis of the deposited data

Results flagged for a closer look

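In 6 of 38 cases the ratio between the 25% of ganglion spots with the highest and the lowest marker score had one sign in all 3 TN areas and the other in HC. This difference between TN and HC was not tested, and HC is 1 area. The share of all genes with such a split was not computed, so nothing is read from the count. By the nerve injury score Ltbp1 had a log2 ratio of 0.58 in TN1, 0.62 in TN2 and 0.81 in TN3, and -0.71 in HC. Its level went from 11.2 to 17.2 CPM, 19.3 to 30.1 CPM and 17.5 to 31.4 CPM in the TN areas, and from 6.56 to 3.62 CPM in HC, on 40 and 31 UMIs. Timp1 had 0.87, 0.47 and 0.45 in the TN areas and -0.26 in HC by the same score. Fn1 had 0.19, 0.14 and 0.16 and -0.44 in HC, and the scarce Tgfbr2 had 0.49, 0.07 and 0.33 and -0.38 in HC. By the connective tissue score Tgfbr1 had 0.17, 0.53 and 0.45 in the TN areas and -0.071 in HC. By the sensory neuron score Tgfb3 had -0.32, -0.07 and -0.93 in the TN areas and 0.033 in HC.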

How the results depend on the processing

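Over 87 values of the 10 genes, 874 alternative values were computed, of which 770 kept direction and call, 38 gained a call, 35 lost one and 31 changed direction. The cause was not tested. No paired analysis was possible because HC is 1 capture area with tissue of 2 animals that the spots do not tell apart. With 1 HC area and 2 residual degrees of freedom, counts of called genes in TN against HC are fragile.
Counts of called genes changed as follows. DESeq2 called 132 in ganglion (edgeR 0), 4 in central myelin (0), 158 over all spots (0), 103 by the nerve injury score (56), 2222 by the connective tissue score (3686), 146 by the macrophage score (432) and 943 by the sensory neuron score (1772). Without a filter on low counts edgeR called 3 in ganglion, 2 in central myelin, 975 in nerve (384), 131 for the difference between regions (3), 521 by the nerve injury score and 1007 by the macrophage score. Regions taken by marker scores gave 1 in ganglion, 0 for the difference between regions, 1585 by the connective tissue score, 66 by the macrophage score and 671 by the sensory neuron score. The neuron-rich cluster alone gave 5 in ganglion, 8 clusters gave 6 for the difference between regions, and 12 clusters gave 2066, 283 and 1070 by the connective tissue, macrophage and sensory neuron scores. Nerve clusters without TN2, chosen after seeing the data, gave 0.
Leaving out each TN area in turn gave 0 to 974 in ganglion, 0 to 185 in central myelin, 0 to 1797 in nerve, 0 to 2171 over all spots and 0 to 127 for the difference between regions, and 3 to 8, 36 to 111 and 942 to 1427 by the nerve injury, macrophage and sensory neuron scores. In the 4 fits of TN against HC the highest count came without TN1.
Of the values whose direction turned, Thbs2 by the sensory neuron score had been called (-0.74) and Tgfb1 in ganglion had been 0.64. On leaving out areas, Tgfb1 ran from -0.42 to 1.09 in ganglion, -0.52 to 0.29 in nerve, -0.76 to 0.41 for the difference between regions and -0.26 to 0.12 by the nerve injury score. Tgfb2 ran from -0.46 to 0.10 in ganglion, -0.20 to 0.054 in central myelin and -0.59 to 0.19 for the difference between regions. By the nerve injury score Bgn ran from -0.14 to 0.0052, Fn1 from -0.038 to -0.030, Tgfbr2 from -0.15 to -0.054 and Thbs2 from -0.17 to 0.41, and by the macrophage score Tgfb3 from -0.13 to 0.024. In the neuron-rich cluster alone Tgfb1 was -0.12 and Tgfbr2 -0.0052, and in nerve clusters Tgfbr2 was 0.15. With 8 clusters Tgfb2 was 0.18 and Thbs2 0.24 for the difference between regions, and Fn1 -0.0075 by the nerve injury score. With 12 clusters Tgfb3 was -0.014 and Bgn 0.085 by that score. With marker scores Tgfb2 was 0.39 and Fn1 -0.52 for the difference between regions, Bgn 0.014 by the nerve injury score, Tgfb3 0.11 by the macrophage score and Thbs2 0.034 by the sensory neuron score.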
